A study of Mus musculus with 29 samples.

Results

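Type I interferon response genes were followed in cultured and fresh mouse CD4 T cells as a group of 49 genes, picked by symbol (49 of 54532 gene rows in the table of the cell-type experiment, 49 of 55421 in that of the Smad experiment). All cells came from naive splenic CD4 T cells of C57BL/6 mice, and RNA was read with QuantSeq, a kit that counts 1 tag close to the 3' end of each polyadenylated RNA. The cell-type experiment had 3 libraries per group: Treg cells, cultured for 5 days in 15 ng/ml IL-2 plus 10 ng/ml human TGF-beta; Th0 cells, cultured for 5 days in 15 ng/ml IL-2 with no TGF-beta listed; and naive cells. The Smad experiment had 2 libraries per group, all of them Treg cultures with the IL-2 and TGF-beta doses above: cells with a guide RNA to Smad2 (sgSmad2), to Smad3 (sgSmad3), to the pair of them (sgSmad2/3), and cells without a guide (control). The study set out to find lipid synthesis genes of Treg cells and the part of Smad2/3 in Acsl6 expression. The labels name no Cas9 source and no non-targeting guide. They leave unstated whether replicate libraries come from different mice or cultures, and a p here therefore covers only library-to-library spread, which can be technical. Levels are in CPM, reads per 1000000 counted reads. Changes are differences of log2(CPM + 1), a scale on which genes with few reads change less than they do in CPM, and a gene is said to have risen or fallen where the adjusted p of limma (Benjamini-Hochberg over all genes tested) was under 0.05.

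Type I interferons act through the receptor pair Ifnar1 and Ifnar2, the kinases Jak1 and Tyk2, and a complex with Stat2 and Irf9 that binds interferon-stimulated response elements (ISRE) near the start of its target genes. The targets slow viruses at many steps: they sense foreign nucleic acid, cut or edit RNA, trap virions, tag proteins with ISG15, and some, such as Usp18, dampen the receptor in turn. T cells are known to keep a low, tonic level of this program without infection.

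Library depth ran between 797612 and 1551478 reads in the cell-type experiment. In the Smad experiment it was put at between 1294583 and 1602297 reads, which assumes that an unnamed last line of its table holds 1 read in each library. At these depths a count of 0 allows up to 3 reads, which is 1.93 to 3.76 CPM per library in the first experiment and 1.87 to 2.32 CPM in the second (counting error only, since the reads carry no molecular identifiers). Foxp3, the lineage factor of Treg cells, had 138, 191 and 207 CPM in Treg, against 13.8, 8.88 and 8.57 CPM in Th0 and 82.7, 91.7 and 88.8 CPM in naive libraries. Smad2 had 12 and 24 CPM in sgSmad2, 13 and 18 CPM in sgSmad2/3, and 37 and 29 CPM in control libraries. Smad3 had 26 and 25 CPM in sgSmad3, 41 and 37 CPM in sgSmad2/3, and 30 and 34 CPM in control libraries. None of these differences of Smad2 or Smad3 passed the adjusted threshold of limma, and a 3' tag can lie outside the stretch a guide edits, so the transcript level is a weak check of these guides.

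The bases before the start of a gene are shown because they carry the element by which interferon genes are recognised. RefSeq promoter windows on GRCm38.p6, running 250 bases before to 50 after the start, existed for 38 of the 49 members. The core ISRE letters GAAANNGAA, searched on both strands, stood in 19 of the 38 windows (50%), against 9.76% of the 27025 genes with a window. Counting matches that lie before the start, 14 of 38 windows (36.8%) held the letters, against 8.18% of all genes. The core letters of the interferon-gamma activated site (GAS), TTCNNNGAA, stood before the start in 7 of 38 windows (18.4%), against 8.13% of all genes. Matches of both kinds can overlap, as they do in Bst2. Printed here, with each ISRE match in capitals on the gene's own strand, are the 6 members with the largest fitted falls in Treg against Th0 cells among those whose match lies before the start and outside the annotated gene, and Igtp, which fell little (log2 -0.45). They lie at chr19:34640760-34640833 (Ifit1, plus strand), chr4:156200856-156200916 (Isg15, minus strand), chr12:26456543-26456591 (Rsad2, minus strand), chr5:120777700-120777754 (Oas3, minus strand), chr2:62646339-62646387 (Ifih1, minus strand), chr8:71537568-71537622 (Bst2, minus strand) and chr11:58199502-58199550 (Igtp, plus strand).
Ifit1: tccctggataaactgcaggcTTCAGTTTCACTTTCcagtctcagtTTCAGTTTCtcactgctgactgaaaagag
Isg15: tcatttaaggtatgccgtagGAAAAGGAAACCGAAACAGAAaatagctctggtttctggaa
Rsad2: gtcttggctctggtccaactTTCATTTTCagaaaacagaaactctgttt
Oas3: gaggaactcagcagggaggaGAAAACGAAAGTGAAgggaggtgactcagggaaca
Ifih1: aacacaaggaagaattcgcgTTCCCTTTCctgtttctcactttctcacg
Bst2: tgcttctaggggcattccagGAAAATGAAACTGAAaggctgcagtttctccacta
Igtp: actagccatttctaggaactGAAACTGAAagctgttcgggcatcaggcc
Ifit1 and Isg15 each held 3 matches, Oas3 and Bst2 2 each, and Rsad2, Ifih1 and Igtp 1 each; overlapping matches run together in the capitals. In Isg15 the 3 matches form 1 run that ends 58 bases before the start. The match in Igtp has the letters of a match in Bst2.

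Treg cells against Th0 cells compare cultures that differ in TGF-beta. The interferon genes were lower in Treg cells almost throughout: of 48 members tested, 37 fell and 0 rose, while 2.45% of all 14165 genes tested fell and 2.99% rose. The members had been chosen with earlier results of these data known, so these shares are a description. The 0 rises were also 0 at an unadjusted p under 0.05 in limma and 0 in edgeR and DESeq2. The median member changed by -1.19 on the log2 scale, against -0.0085 for all genes. All 48 fitted changes were negative, between -4.17 and -0.056 with a pseudocount of 1. In 44 members every Treg library lay below every Th0 library, which held for 11.2% of all genes, and in 0 did every Treg library lie above every Th0 library, which held for 10% of all genes. Of the members that fell, 27 did so by a log2 change of 1 or more and 14 by 2 or more. Oas1a, 1 of the 49, was listed at 0 in all 9 libraries and was not tested. Without Shisa5, the most abundant member, the members summed to 2896 ± 116 CPM in Treg, 5590 ± 148 CPM in Th0 and 3210 ± 146 CPM in naive libraries (SD, n = 3 each). Fewer cells with the transcripts and less RNA per cell cannot be told apart in such bulk samples.

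**Figure D1:**
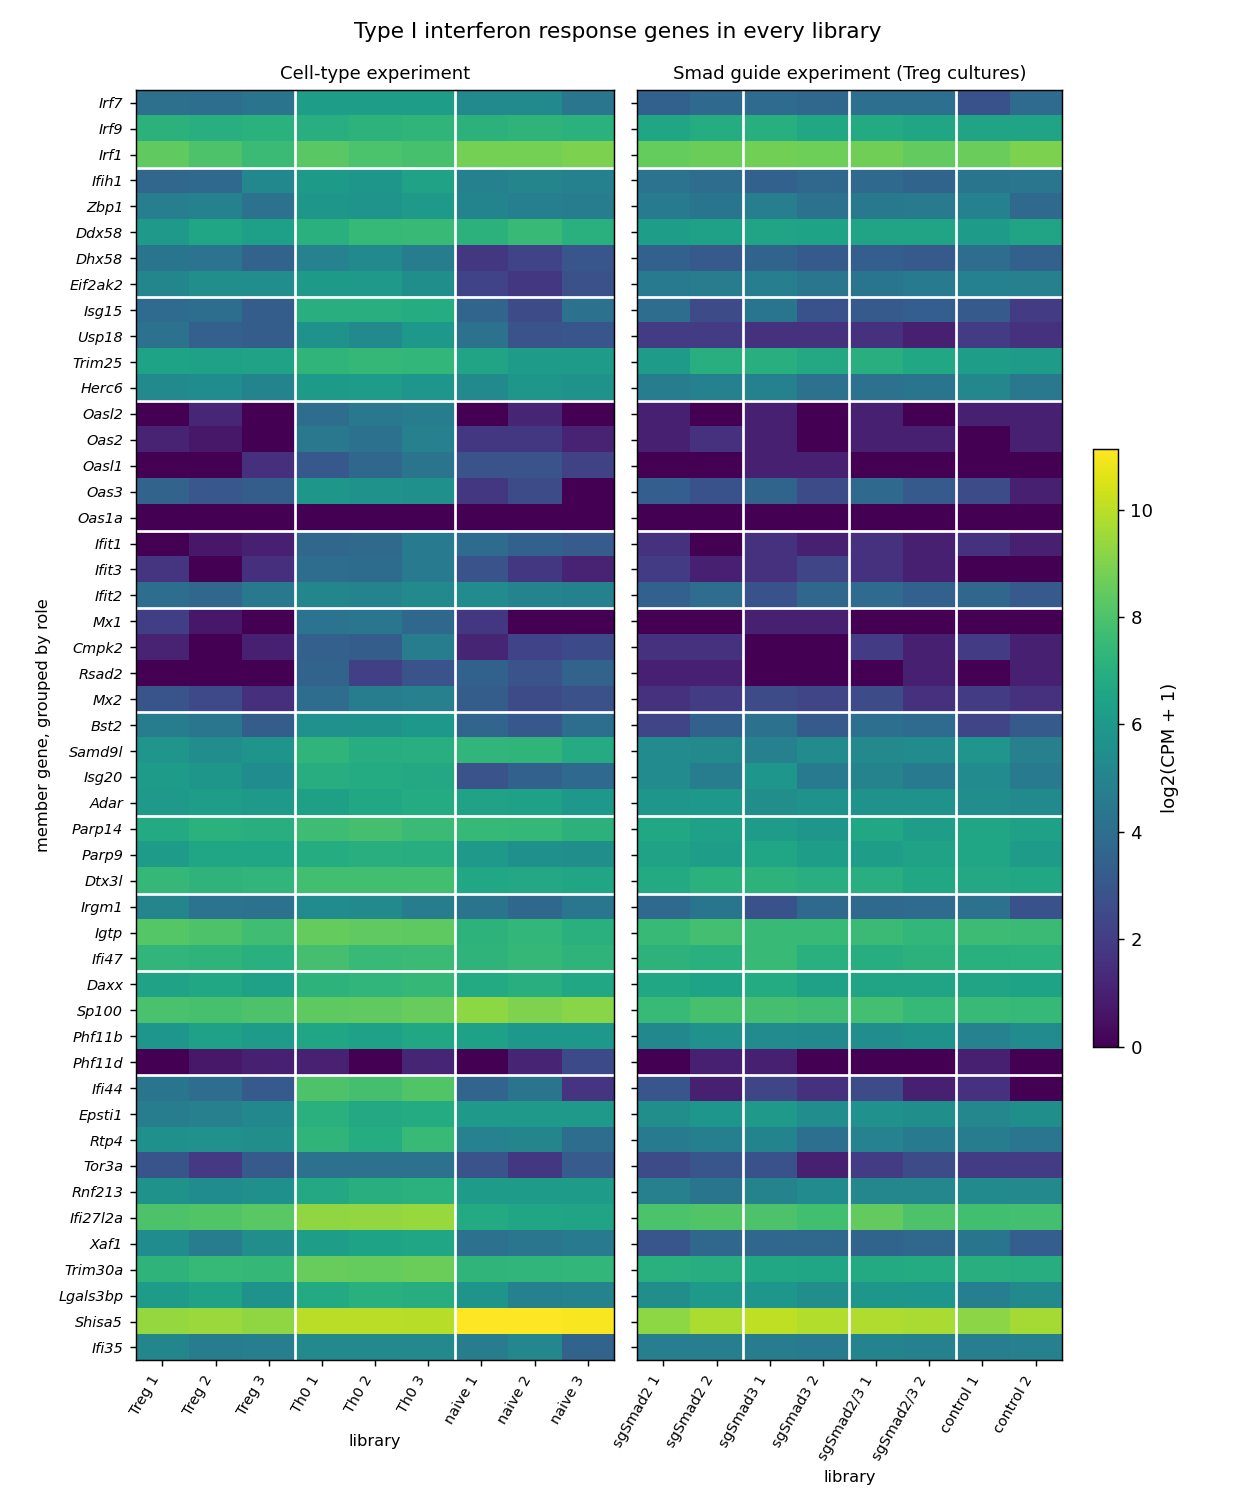
Level of each of the 49 members (rows, grouped by role) as log2(CPM + 1) in each library (columns) of the cell-type experiment and of the Smad experiment, whose tables were normalised separately. The 3 Th0 columns are brighter than the 3 Treg columns for nearly all rows. For 36 of the 37 members that fell in Treg against Th0, all 8 columns of the Smad experiment lie below all 3 Th0 columns. These 37 were picked as lower in Treg than in the same Th0 columns, and the share over all genes was not computed.

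Markers of other cells were read from the same libraries. The 7 T cell markers summed to between 2655 and 2953 CPM in Treg and between 2796 and 2963 CPM in Th0 libraries. The 9 myeloid markers summed to between 1.93 and 3.92 CPM in Treg and between 0 and 4.24 CPM in Th0 libraries, with Csf1r, Cd14, S100a8, S100a9 and Lyz2 at 0 in both. The 10 B cell markers summed to between 126 and 131 CPM in Treg and between 124 and 143 CPM in Th0 libraries. Plasmacytoid dendritic cells, a main source of type I interferon, are marked among other genes by Siglech, Ccr9 and Klk1, which were at 0 in all Treg and all Th0 libraries. Their 7 markers summed to between 246 and 403 CPM in Treg and between 158 and 186 CPM in Th0 libraries, a sum that includes Irf8 and the member Bst2, both also expressed by T cells. The 8 markers of CD8, NK and gamma-delta T cells summed to between 60.7 and 98.0 CPM in Treg and between 40.4 and 65.7 CPM in Th0 libraries, and the part of this difference in the results was not tested.

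Among the transcription factors, Irf7, which drives interferon-alpha genes and is itself an interferon target, had 16.2, 15.5 and 18.6 CPM in Treg, against 74.2, 73.2 and 75.9 CPM in Th0 libraries. It fell by 2.09 on the log2 scale (SE 0.24, limma adjusted p = 7.3e-06), and the groups did not overlap. The naive libraries had 38.9, 39.6 and 19.9 CPM of Irf7. Irf9, the DNA-binding subunit of the interferon-activated complex, had 137 ± 6.84 CPM in Treg and 144 ± 13.4 CPM in Th0 libraries (SD, n = 3 each), values that overlap. Irf1, a target of interferon-gamma and of T cell stimulation as well, had 263 ± 73.7 CPM in Treg and 268 ± 41.8 CPM in Th0 libraries, and these also overlap. In all, 1 of the 3 factors fell.

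Sensors of foreign nucleic acid had 3 of 5 members fall. Ifih1, which encodes the long double-stranded RNA sensor MDA5, had 11.8, 12.9 and 36.2 CPM in Treg, against 66.7, 58.8 and 84.5 CPM in Th0 libraries. It fell by 1.90 on the log2 scale (SE 0.30, limma adjusted p = 0.00043), with Treg replicate 3 well above the other 2 Treg libraries. This call ended with Treg and Th0 alone in the fit (limma adjusted p = 0.058). Ddx58, encoding RIG-I, the sensor of RNA with a 5' triphosphate, fell to 78.6 ± 15.6 CPM in Treg, against 166 ± 28.7 CPM in Th0 (log2 -1.07). Zbp1, which binds Z-form nucleic acid and can start necroptosis, fell to 23.9 ± 5.61 CPM in Treg, against 58.4 ± 5.22 CPM in Th0 (log2 -1.27). Dhx58, encoding LGP2, the helper of these helicases, had 16.1 ± 4.63 CPM in Treg and 31.4 ± 6.73 CPM in Th0. Eif2ak2, encoding the kinase PKR that stops translation, had 40.1 ± 5.83 CPM in Treg and 58.1 ± 11.1 CPM in Th0. For both Dhx58 and Eif2ak2 every Treg library lay below every Th0 library, but neither passed the threshold.

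The ISG15 conjugation system fell in all 4 of its members. Isg15, the ubiquitin-like protein that is joined to new proteins, had 14, 15.5 and 8.82 CPM in Treg, against 130.3, 129 and 119 CPM in Th0 libraries. This gap of 3.24 on the log2 scale (log2 -3.24, SE 0.33, limma adjusted p = 1.7e-06) is many times the spread within either culture. Usp18, the protease that removes ISG15 and also restrains the interferon receptor, had 17.2, 9.67 and 8.82 CPM in Treg, against 50.9, 38.8 and 60 CPM in Th0 libraries (log2 -2.02, SE 0.36, limma adjusted p = 0.0013). Trim25, a ubiquitin ligase that activates RIG-I, fell to 84.7 ± 2.38 CPM in Treg, against 164 ± 5.98 CPM in Th0 (log2 -0.94). Herc6, the main ISG15 ligase in mice, had 37.0 ± 5.31 CPM in Treg and 64.4 ± 5.98 CPM in Th0. Its call did not hold without Treg replicate 3, Th0 replicate 1 or Th0 replicate 2, where the adjusted p of limma reached 0.084.

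The OAS family, enzymes that make the short 2'-5' oligoadenylates that switch on RNase L and their relatives, fell in all 4 tested members, with a median of -3.54. Oasl2 had 0, 1.29 and 0 CPM in Treg, against 14.8, 21.1 and 25.7 CPM in Th0 libraries. Oas2 had 1.08, 0.645 and 0 CPM in Treg, against 21.2, 16.6 and 28.2 CPM in Th0 libraries. Oasl1, which in mice represses translation of the Irf7 message, had 0, 0 and 1.96 CPM in Treg, against 7.42, 12.2 and 18.4 CPM in Th0 libraries. Each of these had only 2 reads in the 3 Treg libraries together, so the size of each fall is given as a ratio of pooled reads with its counting interval. Oasl2 stood at 2 reads in Treg and 54 in Th0, a ratio of 0.0282 (95% exact interval 0.0033 to 0.107). For Oas2 there were 2 reads in Treg and 58 in Th0, a ratio of 0.0262 (0.0031 to 0.099), and for Oasl1 2 and 33, a ratio of 0.0461 (0.0054 to 0.180). Oas3, with 30 reads in Treg and 142 in Th0, fell to 8.89 ± 1.84 CPM in Treg, against 53.1 ± 5.84 CPM in Th0, a call that ended with a pseudocount of 0.1 in place of 1 and without limma's trend of spread with level (limma adjusted p up to 0.28). The Oas genes are close relatives, and reads shared between them cannot be assigned with certainty.

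All 3 listed members of the IFIT family, of which Ifit1 holds on to foreign RNA by its 5' end, fell. Ifit1 had 0, 0.645 and 0.98 CPM in Treg, against 11.7, 13.3 and 23.3 CPM in Th0 libraries, that is 2 reads against 42 and a ratio of 0.0362 (95% exact interval 0.0042 to 0.139). The naive libraries stood near Th0 for this gene, with 13.8, 9.91 and 8.18 CPM. Ifit3 fell to 1.37 ± 1.19 CPM in Treg, against 17.1 ± 4.29 CPM in Th0. Ifit2, with 16.3 ± 4.77 CPM in Treg and 34.7 ± 4.13 CPM in Th0, had the smallest change of the family (log2 -1.08). That call did not hold without Treg replicate 2 or Th0 replicate 3, where the adjusted p of limma reached 0.074. The family members share sequence, which limits how surely their reads are told apart.

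The Mx GTPases, which trap viral nucleocapsids, and viperin with its neighbour also fell in all 4 members. Rsad2, which encodes viperin, the enzyme that makes a chain-terminating nucleotide, had 0, 0 and 0 CPM in Treg, against 10.6, 3.33 and 6.12 CPM in Th0 libraries. With 0 reads in Treg and 18 in Th0, its ratio had a 95% exact interval of 0 to 0.173. Taking 3 reads over the group as the floor for Treg, it was at least 7.89-fold lower there, a bound that leaves out the counting error of the Th0 reads. Cmpk2, a mitochondrial nucleotide kinase encoded beside Rsad2 on chromosome 12, had 1.08, 0 and 0.98 CPM in Treg, against 9.54, 8.88 and 25.7 CPM in Th0 libraries, a ratio of 0.0400 (95% exact interval 0.0047 to 0.155) from 2 reads against 38. Mx1 fell to 1.29 ± 1.71 CPM in Treg, against 16.7 ± 4.01 CPM in Th0, a call that ended with a pseudocount of 0.1 (limma adjusted p = 0.10). Mx2, annotated as a polymorphic pseudogene in mice, fell to 4.31 ± 2.26 CPM in Treg, against 22.8 ± 7.06 CPM in Th0.

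Of the genes for RNA editing, RNA decay and restriction at membranes, 3 of 4 fell. Samd9l, an antiviral factor that blocks translation, fell to 50.3 ± 6.27 CPM in Treg, against 136 ± 17.2 CPM in Th0 (log2 -1.42, SE 0.15, limma adjusted p = 3.4e-06). Bst2, or tetherin, which ties budding virions to the cell surface, fell to 17.9 ± 8.18 CPM in Treg, against 53.3 ± 6.90 CPM in Th0 (log2 -1.63), a call that ended without the trend and with Treg and Th0 alone in the fit (limma adjusted p up to 0.066). Isg20, a 3' to 5' exonuclease, had 56.6 ± 14.5 CPM in Treg and 114 ± 9.40 CPM in Th0, a call that ended without Treg replicate 2 or 3 or Th0 replicate 1 or 2 (limma adjusted p up to 0.098). Adar, which edits adenosine to inosine in double-stranded RNA, had 65.6 ± 6.27 CPM in Treg and 97.5 ± 19.0 CPM in Th0 and did not pass (limma adjusted p = 0.070).

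Smaller changes were seen in genes with higher levels. Parp14, a mono-ADP-ribosyltransferase, fell to 124 ± 13.7 CPM in Treg, against 209 ± 19.8 CPM in Th0 (log2 -0.75). Its partners Dtx3l, a ubiquitin ligase, and Parp9, which binds it, had 160.4 ± 9.35 and 86.9 ± 15.6 CPM in Treg, against 218 ± 2.41 and 123 ± 5.08 CPM in Th0. Dtx3l passed and Parp9 did not, and the Dtx3l call ended without Treg replicate 2 or Th0 replicate 1 or 2 (limma adjusted p up to 0.078). These 2 genes overlap at their 5' ends on chromosome 16. The immunity-related GTPases attack the vacuoles of intracellular parasites, and their 3 members had log2 changes of -0.44 to -0.64. Igtp had 257 ± 42.1 CPM in Treg and 347 ± 15.2 CPM in Th0, Ifi47 had 149 ± 13.3 CPM in Treg and 203 ± 21.7 CPM in Th0, and both calls rest on few libraries. The call of Igtp ended without Treg replicate 2 or 3, any 1 of the 3 Th0 libraries or naive replicate 3, whose libraries share the fit (limma adjusted p up to 0.19). That of Ifi47 ended without Treg replicate 2 or 3 or Th0 replicate 1 or 3 (limma adjusted p up to 0.15). Irgm1, at 22.3 ± 8.66 CPM in Treg and 34.6 ± 7.77 CPM in Th0, did not pass.

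In nuclear bodies, the spots where PML and its partners hold viral DNA silent, Daxx, a histone H3.3 chaperone, fell to 88.8 ± 9.84 CPM in Treg, against 160.2 ± 11.6 CPM in Th0 (log2 -0.85). Sp100, a core protein of these bodies, fell to 245 ± 10.6 CPM in Treg, against 349.7 ± 21.6 CPM in Th0 (log2 -0.51), a call that ended without the trend (limma adjusted p = 0.11). The PHF11 genes Phf11b and Phf11d did not pass: Phf11b had 68.3 ± 12.6 CPM in Treg and 93.4 ± 10.1 CPM in Th0, and Phf11d had 2 reads in each culture. These close paralogs may share reads.

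Of the 11 other interferon-inducible genes, 9 fell. Ifi44, an interferon-induced gene linked to restriction of viruses, had 19.4, 14.8 and 7.84 CPM in Treg, against 259.6, 229 and 276 CPM in Th0 libraries. It fell by 4.17 on the log2 scale (SE 0.44, limma adjusted p = 3.0e-06), a ratio of pooled reads of 0.0551, and naive libraries were at the Treg level with 11.3, 18.6 and 2.34 CPM. Epsti1, an interferon-induced gene first found in stroma beside tumour cells, had 24.8, 27.7 and 36.2 CPM in Treg, against 133, 104 and 115 CPM in Th0 libraries, and 63.9, 63.2 and 62.0 CPM in naive ones (Treg against Th0: log2 -1.97, SE 0.17, limma adjusted p = 2.2e-07). Here the naive level lay between the 2 cultures. Rtp4, a chaperone that brings receptors to the cell surface, fell to 46.6 ± 2.24 CPM in Treg, against 152 ± 30.9 CPM in Th0. Ifi27l2a, an interferon-induced gene with close paralogs, fell to 285 ± 24.2 CPM in Treg, against 651 ± 29.0 CPM in Th0. Trim30a, a ubiquitin ligase that dampens Toll-like receptor signalling in mice, fell to 167 ± 14.2 CPM in Treg, against 378 ± 14.6 CPM in Th0, and has neighbouring paralogs too. The members Rnf213, a giant ubiquitin ligase, and Xaf1, a cofactor in cell death, fell by 1.37 and 1.19 on the log2 scale. Shisa5, a membrane protein of the endoplasmic reticulum and the most abundant member, fell to 670.0 ± 41.8 CPM in Treg, against 1008 ± 14.7 CPM in Th0 (log2 -0.59), a call that ended without the trend (limma adjusted p = 0.056). Lgals3bp, a secreted glycoprotein that binds galectin-3, had 67.6 ± 17.6 CPM in Treg and 122 ± 9.87 CPM in Th0, a call that ended without Treg replicate 1 or 3 or any 1 of the 3 Th0 libraries (limma adjusted p up to 0.13). Tor3a, a relative of torsin ATPases, had 5.63 ± 2.73 CPM in Treg and 16.9 ± 0.254 CPM in Th0, and Ifi35 had 28.5 ± 4.21 CPM in Treg and 37.5 ± 0.716 CPM in Th0, and neither passed.

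**Figure D2:**
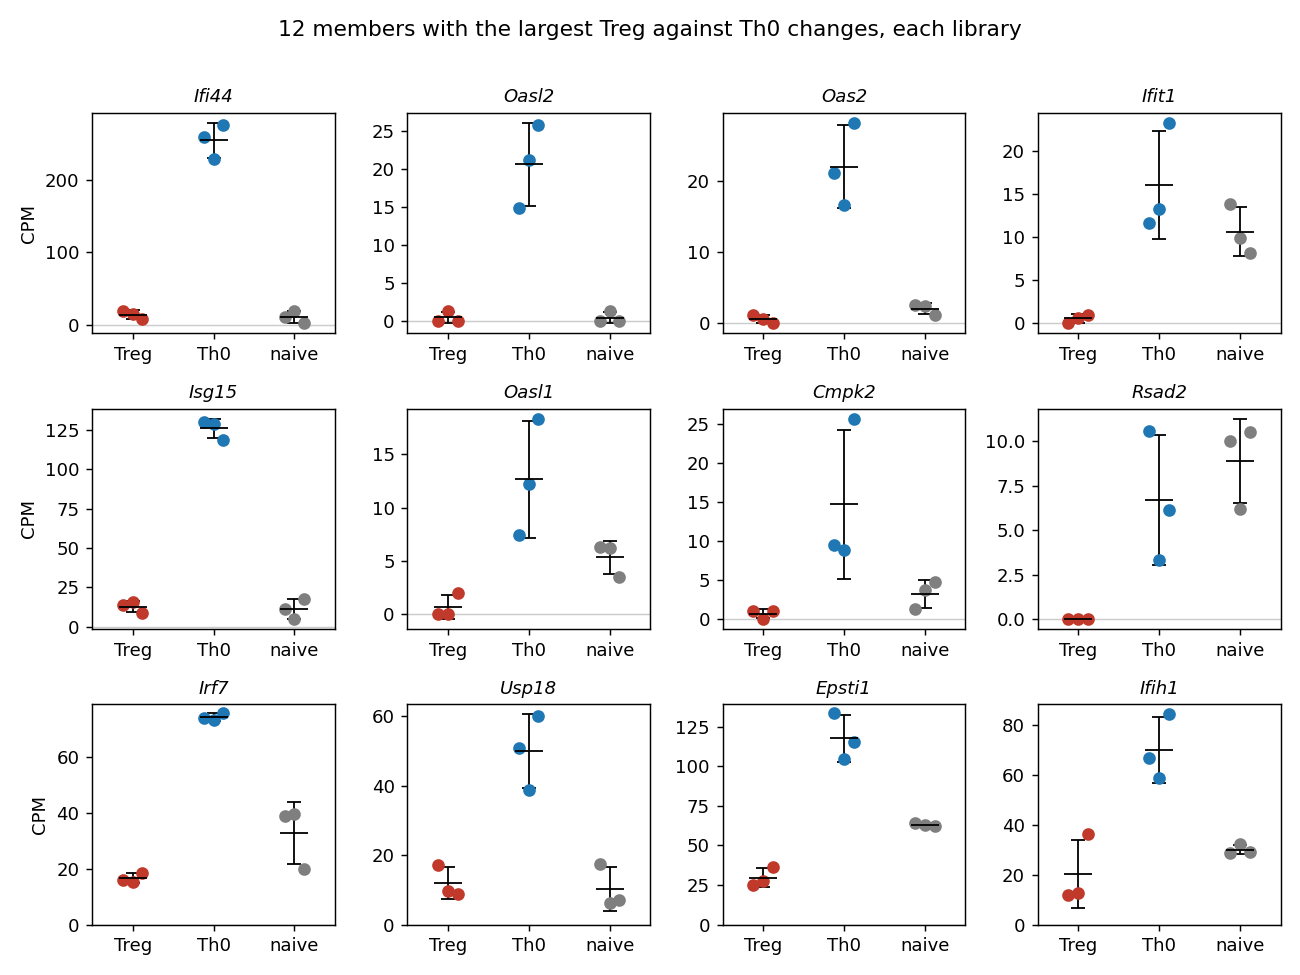
CPM of the 12 members with the largest log2 change in Treg against Th0 among the 25 with the smallest p, one panel each, with a point per library (Treg, Th0, naive; n = 3 each), the mean as a bar and the SD as whiskers; each panel has its own linear axis. In each of the 12 panels the 3 Th0 points lie above the 3 Treg points, and the naive points lie near Treg for Ifi44 and Isg15 but near Th0 for Ifit1 and Rsad2.

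For 30 of the 37 members that fell the call held when any 1 of the 6 Treg and Th0 libraries was left out. Over these leave-outs the number of members that fell ran from 32 to 38. The number was 41 with edgeR and 37 with DESeq2 on the reads recovered from the table.

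None of the listed ligands, receptors, kinases, STATs or upstream sensing genes passed the test as lower in Treg against Th0 cells. Of all 14165 genes tested 2.45% fell, so 0 falls in lists this short is near the share over all genes. Of 18 interferon ligand genes, 17 were listed at 0 in all 9 libraries, including Ifnb1, and the remaining one, Ifng, had at most 1.06 CPM in Treg and Th0 libraries. In the list of 9 receptors, kinases and STATs, 2 rose and 0 fell in Treg against Th0, where 2.99% of all genes rose and 2.45% fell. Ifngr2, a chain of the interferon-gamma receptor, rose to 42.0, 43.2 and 46.0 CPM in Treg, against 11.7, 9.99 and 8.57 CPM in Th0 libraries (log2 2.02, SE 0.27, limma adjusted p = 5.8e-05). Jak1, the kinase shared by both interferon receptors, rose as well (log2 0.43, SE 0.083, limma adjusted p = 0.0028). The type I receptor chain Ifnar1 had 59.2, 35.5 and 35.3 CPM in Treg, against 37.1, 41.1 and 41.6 CPM in Th0 libraries, and its partner Ifnar2 had 66.8, 49.6 and 41.1 CPM in Treg, against 73.1, 47.7 and 49 CPM in Th0 libraries. Stat2, with 114, 96.7 and 90.1 CPM in Treg, against 141, 143 and 127 CPM in Th0 libraries, missed the threshold (log2 -0.45, limma adjusted p = 0.062). Jak2 missed it too (log2 -0.53, limma adjusted p = 0.089). Every Treg library lay below every Th0 library for Stat2 and Jak2.

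The list of nucleic acid sensors, adaptors, kinases and factors upstream of interferon had 13 genes in the cell-type table. Of these 11 were tested, 1 rose and 0 fell, where 2.99% of all genes rose and 2.45% fell. Tlr3 and Tlr9 were not tested. The riser was Mavs, the adaptor of RIG-I and MDA5, with 49.5, 52.2 and 47.0 CPM in Treg, against 24.4, 18.9 and 20.8 CPM in Th0 libraries (log2 1.18, limma adjusted p = 0.018). Mb21d1, which encodes the DNA sensor cGAS, had 44.1, 49 and 54.9 CPM in Treg, against 63.6, 62.1 and 61.2 CPM in Th0 libraries, and did not pass (log2 -0.34, limma adjusted p = 0.57). Tbk1, the kinase that activates Irf3, had 42.0, 41.9 and 40.2 CPM in Treg, against 51.9, 45.5 and 58.8 CPM in Th0 libraries, and did not pass either (log2 -0.32, limma adjusted p = 0.41). For these 2 genes every Treg library lay below every Th0 library. Among 11 negative regulators and other interferon regulatory factors, 2 rose and 1 fell, beside the same shares of all genes. Irf8 (log2 1.43) and the phosphatase Ptpn6 (log2 0.73) rose, and Usp18, which is also a member, fell.

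The ISRE letters were set beside the changes. Of 18 tested members with the letters in the window 14 fell in Treg against Th0, and of 19 without them 15 fell, which is 77.8% and 78.9%. Among genes that are not members, 38 of 796 with the letters fell (4.77%) and 182 of 8554 without them (2.13%). Rises were also more frequent with the letters, at 32 of 796 (4.02%) against 283 of 8554 (3.31%). No match in these 300 bases says only that the letters are not in the window.

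Th0 cells against naive cells compare 5 days of culture with cells from the spleen. They share the Th0 libraries with the comparison above. Of 48 members tested 35 rose and 3 fell, against 24.3% of all genes that rose and 17.6% that fell, and the median member changed by 1.15, against 0.084 for all genes. The 6 members with the smallest p were Ifi27l2a (log2 2.71), Shisa5 (-1.12), Isg20 (3.47), Eif2ak2 (3.59), Trim30a (1.24) and Rtp4 (2.56), with limma adjusted p between 1.1e-13 and 2.3e-08. Ifi27l2a had 632, 637 and 685 CPM in Th0, against 110.3, 96.6 and 90.0 CPM in naive libraries, a gap far wider than the spread. Isg20 had 123, 114 and 104 CPM in Th0, against 6.27, 9.91 and 12.9 CPM in naive libraries. Eif2ak2 had 65.7, 63.2 and 45.3 CPM in Th0, against 3.76, 2.48 and 5.84 CPM in naive libraries.

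Shisa5, Sp100 and Irf1 fell. Shisa5 had 1008 ± 14.7 CPM in Th0 and 2199 ± 86.7 CPM in naive, Sp100 349.7 ± 21.6 CPM in Th0 and 559 ± 47.5 CPM in naive, and Irf1 268 ± 41.8 CPM in Th0 and 459.9 ± 23.9 CPM in naive. By role, 3 of 4 OAS genes rose, as did all of Parp9, Dtx3l and Parp14, the 3 immunity-related GTPases, 4 of 5 sensors and 10 of the 11 other interferon-inducible genes, while 1 of 3 IFIT genes, Ifit3, rose. Ifit1, Ifit2, Rsad2, Samd9l and Ddx58 did not pass the test. Ifit2, for example, was at 34.7 ± 4.13 CPM in Th0 and 33.4 ± 5.85 CPM in naive, and Samd9l at 136 ± 17.2 CPM in Th0 and 144 ± 24.3 CPM in naive. Oasl2 had 54 reads in Th0 and 1 in naive, a ratio of 49.9 (95% exact interval 8.59 to 2008). Some calls ended when 1 library was left out. This was so for Ifi35 without naive replicate 3 or any Th0 library (limma adjusted p up to 0.25), Phf11b without Th0 replicate 1 or 3 or naive replicate 2 or 3 (up to 0.12), and Parp14 without Th0 replicate 2 or naive replicate 3 (up to 0.11). It was also so for Ifi47 without Th0 replicate 1 or naive replicate 3 (limma adjusted p up to 0.086), Cmpk2 without Th0 replicate 3 or naive replicate 1 (up to 0.074), Tor3a without naive replicate 2 (0.061) and Irgm1 without Th0 replicate 1 or naive replicate 2 (up to 0.058). The calls of Ifi35, Ifi47, Parp14 and Phf11b also ended with edgeR (adjusted p up to 0.073) and with DESeq2 (up to 0.20). They ended as well without limma's trend and with quantile or trimmed mean scaling. With DESeq2 the call of Irgm1 ended too (adjusted p = 0.051). The calls of Ifit3 and Cmpk2 ended with a pseudocount of 0.1 (limma adjusted p = 0.081 and 0.11).

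**Figure D3:**
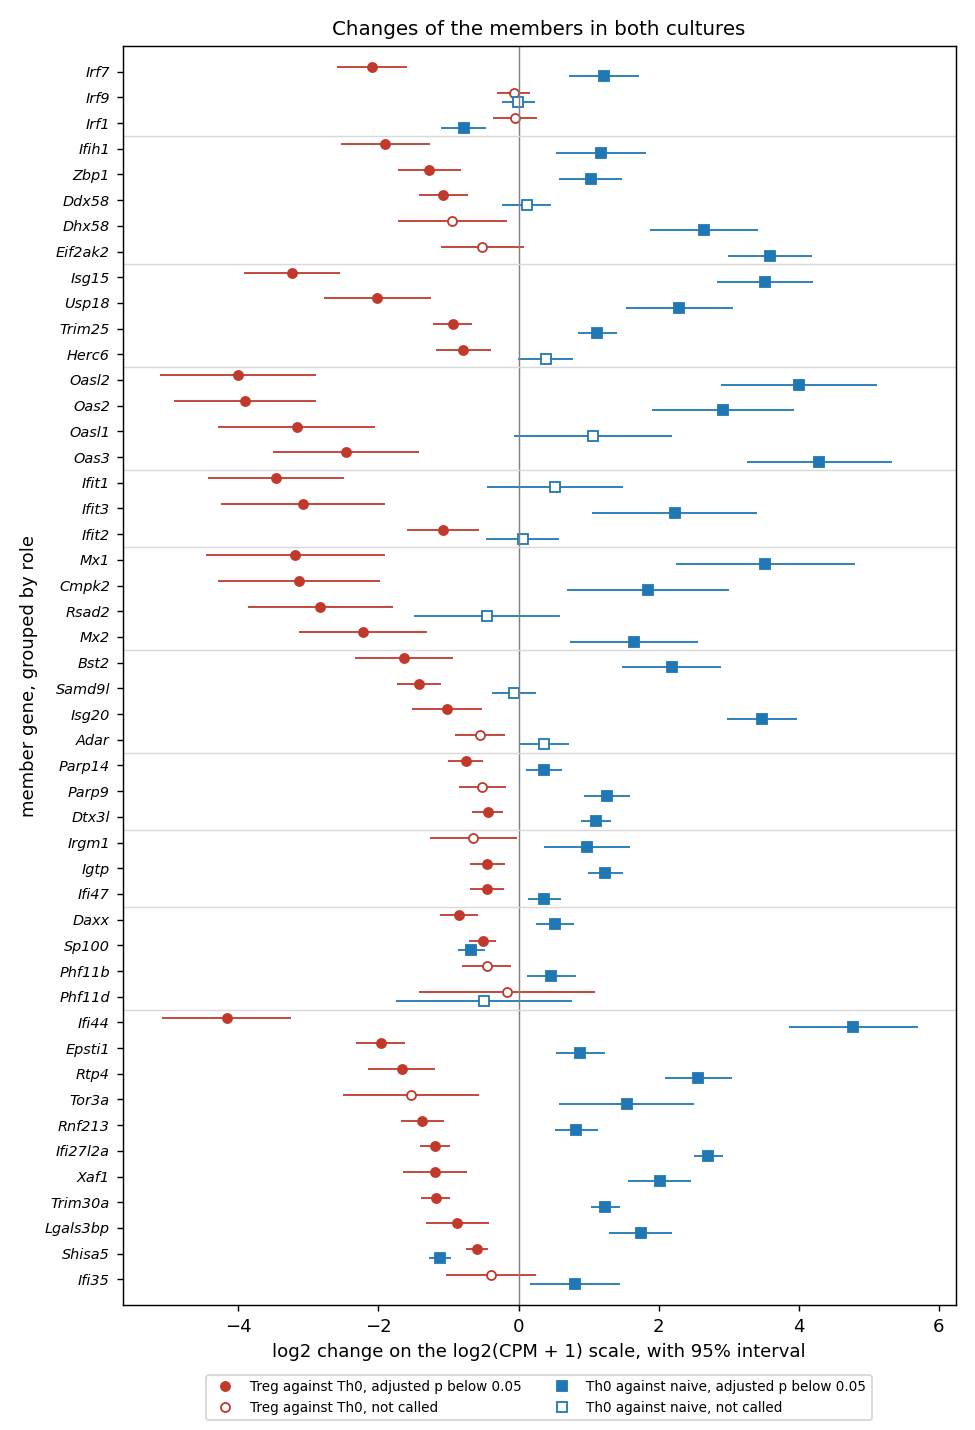
Log2 change with its 95% interval for each of the 48 tested members in Treg against Th0 (red circles) and Th0 against naive (blue squares), filled where the adjusted p was under 0.05. The 37 filled circles all lie left of 0, and 35 of the 38 filled squares lie right of it; Shisa5, Sp100 and Irf1 are the 3 to the left. Both comparisons use the Th0 libraries.

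Treg cells against naive cells, which share libraries with both comparisons above, gave changes in both directions. Of 48 members 11 rose and 14 fell, against 23.3% of all genes that rose and 16.5% that fell, with a median of -0.075 for members and 0.081 for all genes. The 6 members with the smallest p were Shisa5 (log2 -1.71), Ifi27l2a (1.52), Sp100 (-1.19), Eif2ak2 (3.08), Isg20 (2.45) and Samd9l (-1.49), with limma adjusted p between 6.2e-13 and 1.7e-07. Isg20 had 70.0, 58.7 and 41.1 CPM in Treg, against 6.27, 9.91 and 12.9 CPM in naive libraries. Eif2ak2 had 33.4, 43.8 and 43.1 CPM in Treg, against 3.76, 2.48 and 5.84 CPM in naive libraries. For Isg20 and Eif2ak2 every Treg library lay above every naive library.

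Samd9l, by contrast, lay below the naive level. It had 54.9, 43.2 and 52.9 CPM in Treg, against 159, 156 and 116 CPM in naive libraries. The members that fell included Ifit1, Ifit2, Rsad2, Oasl1, Ddx58, Irf7, Epsti1 and Rnf213. Rsad2 had 0 reads in Treg and 22 reads in naive libraries, a ratio with a 95% exact interval of 0 to 0.128. With the floor of 3 reads over the group it was at least 10.4-fold lower in Treg, a bound that leaves out the counting error of the naive reads. Isg15 had 12.8 ± 3.49 CPM in Treg and 11.3 ± 6.29 CPM in naive, a difference of 0.28 (95% interval -0.41 to 0.96). For Trim30a the difference was 0.059 (95% interval -0.15 to 0.26). The call of Daxx ended without Treg replicate 1 or 3 or naive replicate 1 or 2 (limma adjusted p up to 0.20), and that of Parp14 without Treg replicate 1 or naive replicate 1 or 2 (up to 0.077). Those of Xaf1 and Daxx ended with DESeq2 (adjusted p = 0.054 and 0.051). Without limma's trend the calls of Daxx and Parp14 ended (limma adjusted p = 0.15 and 0.096). Daxx also lost its call without the filter, with a pseudocount of 0.1 and with Treg and naive alone in the fit (limma adjusted p up to 0.080).

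Naive libraries also held RNA of other cells. Their 5 red cell genes summed to between 496 and 1172 CPM, against 0 to 4.51 CPM in Treg and 4.90 to 5.55 CPM in Th0 libraries. Myeloid markers reached 29.2 to 95.4 CPM and B cell markers 214 to 549 CPM in naive libraries, and the part of these cells in the naive levels was not tested. Quantile scaling put the median of all genes at -0.045, not 0.081, in Treg against naive and at -0.031, not 0.084, in Th0 against naive. With it 11 members rose and 16 fell in Treg against naive, and 31 rose and 3 fell in Th0 against naive.

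The Smad experiment, done for Acsl6, also shows these genes in Treg cultures with guides against Smad2, Smad3 or both. For the 37 members that were lower in Treg than in Th0, every library of sgSmad2, sgSmad2/3 and control lay below every Th0 library of the other experiment, and for sgSmad3 this held for 36, the exception being Shisa5. The tables were normalised separately, so this is a comparison of levels without a test. These 37 members were picked as lower in Treg than in the same Th0 libraries, and the control libraries carry no guide. The share over all genes was not computed, so an effect of the guides was not tested by this count. Isg15 had 15 and 5 CPM in sgSmad2, 19 and 6 CPM in sgSmad3, 8 and 9 CPM in sgSmad2/3, and 8 and 3 CPM in control libraries, where Th0 libraries had 119 to 130.3 CPM. Ifi44 had 7 and 1 CPM in sgSmad2, 4 and 2 CPM in sgSmad3, 5 and 1 CPM in sgSmad2/3, and 2 and 0 CPM in control libraries. Without Shisa5 the members summed to 2553 ± 153 CPM in sgSmad2, 2559 ± 277 CPM in sgSmad3, 2538 ± 219 CPM in sgSmad2/3 and 2393 ± 17.7 CPM in control libraries (SD, n = 2 each). In the Treg libraries of the cell-type experiment, also without a guide, this sum was 2896 ± 116 CPM (SD, n = 3). The level of unguided Treg cultures thus differed between the experiments, which bears on the comparison with Th0 libraries. Both sgSmad2 libraries, at 2445 and 2661 CPM, lay above both control libraries, at 2380 and 2405 CPM, while the sgSmad3 and sgSmad2/3 libraries overlapped the control ones.

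No guide changed a member past the threshold. limma called 0 of 48 members and 0% of all 18347 genes (0 genes) in sgSmad2/3 against control, in sgSmad3 against control and in sgSmad2 against control. At an unadjusted p under 0.05 there were 7 members in sgSmad2/3 against control (9.78% of all genes, 14.6% of members), 7 in sgSmad3 against control (10% of all genes, 14.6% of members) and 4 in sgSmad2 against control (5.48% of all genes, 8.33% of members). The median member changed by 0.13 in sgSmad2/3, 0.063 in sgSmad3 and 0.085 in sgSmad2 against control, where the median of all genes was 0. With 2 libraries a group and values that the authors rounded to whole CPM, low members carry little information. Among genes with a mean of at least 5 CPM, 35 members were tested and 0 were called in any guide comparison, while 55 genes were called in sgSmad2/3, 10 in sgSmad3 and 1 in sgSmad2 against control.

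The members with the largest differences in sgSmad2/3 cultures were read one by one. Oas3 had 13 and 8 CPM in sgSmad2/3, against 5 and 1 CPM in control libraries (log2 1.70, 95% interval 0.097 to 3.30, limma adjusted p = 0.48). Lgals3bp had 58 and 57 CPM in sgSmad2/3, against 27 and 38 CPM in control libraries (log2 0.82, 95% interval 0.21 to 1.44, limma adjusted p = 0.41). Bst2 had 16 and 14 CPM in sgSmad2/3, against 4 and 8 CPM in control libraries (log2 1.25, 95% interval -0.12 to 2.62). Both sgSmad2/3 libraries lay above both control libraries for these 3 genes. Over all members this was so for 12, against 16.1% of all genes, and for 6 members both lay below, against 13.7% of all genes.

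Ifih1 lay lower, with 13 and 11 CPM in sgSmad2/3, against 19 and 20 CPM in control libraries (log2 -0.66, 95% interval -1.14 to -0.18, limma adjusted p = 0.41). Irf7 had 16 and 16 CPM in sgSmad2/3, against 6 and 14 CPM in control libraries. Trim25 had 124 and 100 CPM in sgSmad2/3, against 72 and 71 CPM in control libraries. Herc6, with 17 and 19 CPM in sgSmad2/3, against 35 and 21 CPM in control libraries, lay lower. The remaining ones of the 12 largest were at counts where 1 or 2 CPM set the change: Ifit3 had 2 and 1 CPM in sgSmad2/3, against 0 and 0 CPM in control libraries, and Usp18 had 2 and 1 CPM in sgSmad2/3, against 3 and 2 CPM in control libraries. Oas2 had 1 and 1 CPM in sgSmad2/3, against 0 and 1 CPM in control libraries, and Phf11d had 0 and 0 CPM in sgSmad2/3, against 1 and 0 CPM in control libraries. Ifi44, given above, is the last of the 12.

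A p that misses the threshold does not show that guides leave the genes alone, so the intervals were read against the size of the fall in Treg cells. In 29 of the 37 members that fell in Treg against Th0, the upper end of the 95% interval of the sgSmad2/3 change lay below that size, taken as a point value from the other experiment. The 8 members in which it did not were Bst2, Dtx3l, Ifit2, Lgals3bp, Oas3, Shisa5, Sp100 and Trim25. The count was 27 of 37 for sgSmad3 and 27 of 37 for sgSmad2. Against the size of the fall divided by 2, the upper end lay below in fewer members. These were 14 of 37 for sgSmad2/3, 17 of 37 for sgSmad3 and 12 of 37 for sgSmad2. Intervals of members at 0 or 1 CPM, such as Mx1 and Oasl1, rest on the spread pooled over genes of like level. The 37 members were picked by this fall, which tends to make its fitted size large, and shares over all genes were not computed. Transcript levels were also a weak check of the guides. Whether the guides reverse the fall was therefore not tested by these counts.

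**Figure D4:**
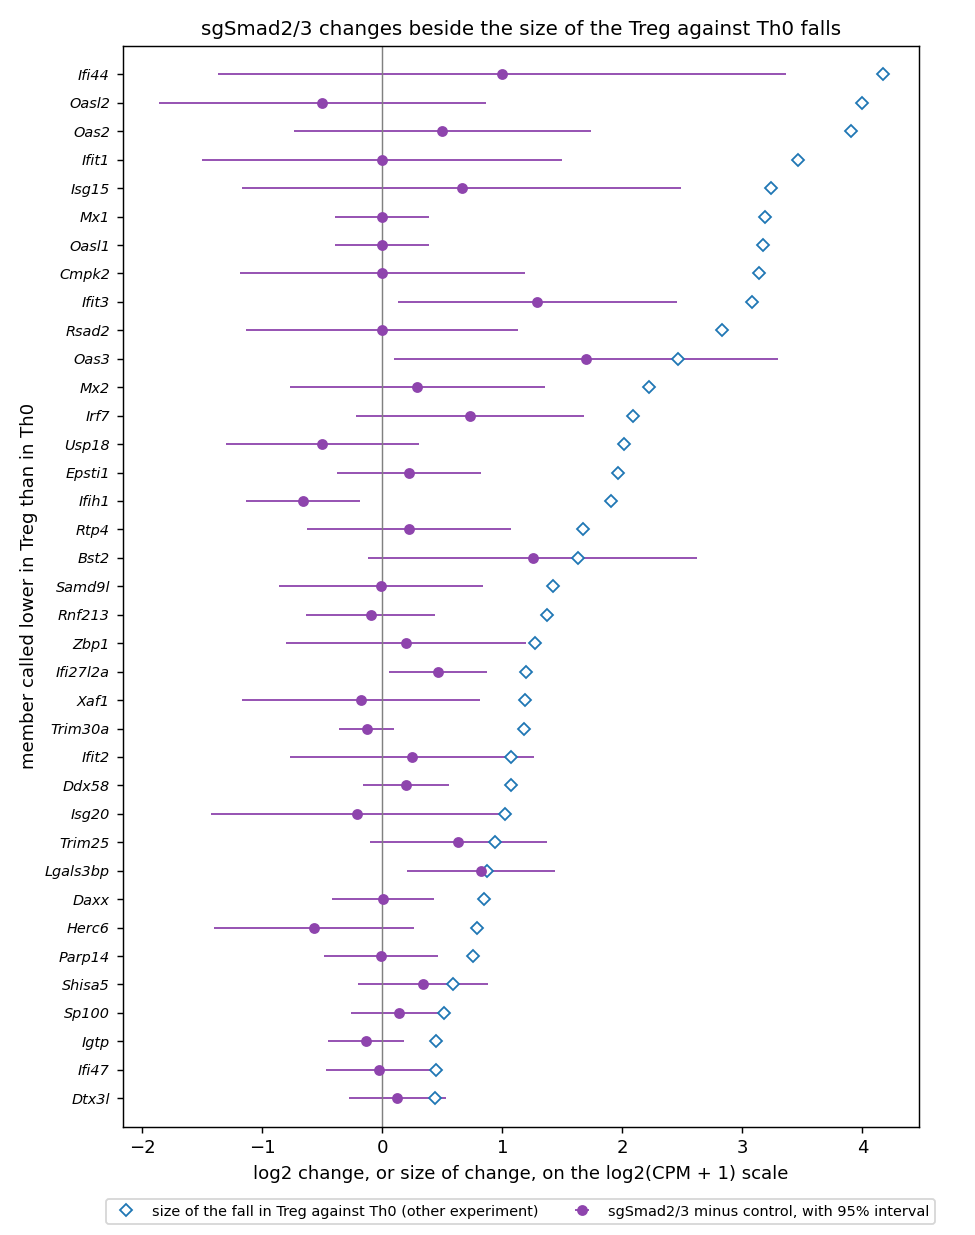
For each of the 37 members that fell in Treg against Th0, the log2 change in sgSmad2/3 against control with its 95% interval (purple, n = 2 each) and the size of the fall in Treg against Th0 from the cell-type experiment, its sign dropped (open diamonds). The diamonds lie right of the upper interval ends for 29 members. All 37 were picked by the fall that the diamonds show, so a reversal was not tested.

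Between the guide groups limma called 0 of 48 members and 0% of genes in sgSmad2/3 against sgSmad2, in sgSmad2/3 against sgSmad3, in sgSmad3 against sgSmad2 and for how far sgSmad2/3 departs from both single-guide changes added together. At an unadjusted p under 0.05 there was 1 member in sgSmad2/3 against sgSmad2 (7.69% of all genes), 5 in sgSmad2/3 against sgSmad3 (6.25%), 7 in sgSmad3 against sgSmad2 (8.75%) and 4 for the departure (5.73%). Mx1 and Oasl1, each with 1 and 1 CPM in sgSmad3 and 0 and 0 CPM in sgSmad2, sgSmad2/3 and control libraries, are among those of the last 3 comparisons, a difference of about 1 read per library after rounding. Adar had 59 and 60 CPM in sgSmad2, 44 and 51 CPM in sgSmad3, 51 and 52 CPM in sgSmad2/3, and 43 and 38 CPM in control libraries. Trim30a had 135 and 121 CPM in sgSmad2, 99 and 95 CPM in sgSmad3, 112 and 116 CPM in sgSmad2/3, and 129 and 121 CPM in control libraries. Myeloid markers summed to between 6 and 10 CPM in sgSmad2, 9 and 51 CPM in sgSmad3, 18 and 70 CPM in sgSmad2/3, and 3 and 5 CPM in control libraries. Red cell genes summed to between 24 and 25 CPM in sgSmad2, 32 and 87 CPM in sgSmad3, 70 and 144 CPM in sgSmad2/3, and 13 and 19 CPM in control libraries. The part of either in these values was not tested.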

How the data were processed

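The members and gene lists were chosen with earlier results of these data known. Per the submitters' processing notes the build was mm10, and the tools included Subread 2.0.1 and STAR 2.7.9a, with deepTools and Bowtie2 also listed; annotation version and strand setting: not given in the sources used here. Both tables carry the name TPM. The authors' cell-type values are CPM: each column sums to 1000000, and 100% of values are whole multiples of 1 read (tolerance 0.01), from which reads were recovered. The deposited Smad values are a score, namely CPM that the authors rounded (sums 1000167 to 1000923). An unnamed last line there, at most 7.72e-05% of a column, was taken as 1 read to put the depths and was then dropped.

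limma 3.58.1 (R 4.3.3, intensity trend) was fitted to log2(CPM + 1), with all groups of a table together. Genes needed 1 CPM in 3 or more cell-type libraries (14165 of 19464 above 0) or in 2 or more Smad libraries (18347 of 22643). P-values were Benjamini-Hochberg adjusted over all genes, with a threshold of 0.05. The plan assumed values per 1000000 reads for both tables, and the rounded Smad values were tested alike. Alternatives were edgeR 4.0.16 and DESeq2 1.42.0 on recovered reads, pseudocounts of 0.1 and 5, other filters, scalings and fits, a replicate block and leave-outs. Ratios of pooled reads have exact 95% intervals. By rule, all members could be named. In Treg against Th0 and sgSmad2/3 against control the 25 of smallest p could be given with their change, 12 of them by library, and elsewhere the 6 of smallest p. Changes and library values given beyond this rule, and the upstream genes named, were chosen after their values were seen. Statistics were tested on simulated data. Of 29 samples, 17 were used; 4 Acsbg1 RNA and 8 ATAC libraries are not analysed here. Values of some genes in the pathway and marker lists are not reported here.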

Additional observations from a re-analysis of the deposited data

How the results depend on the processing

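The members' counts kept within 1.5 times of the reported value in the cell-type comparisons under all alternatives run: 27 (no trend) to 41 (edgeR) members fell in Treg against Th0, 10 to 11 rose and 13 to 16 fell in Treg against naive, and 30 to 36 rose and 3 fell in Th0 against naive. Leaving out a library gave 32 to 38, 11 to 12 and 12 to 14, and 31 to 34 and 3. In Treg against Th0 the calls of Dtx3l, Herc6, Ifi47, Igtp, Isg20 and Lgals3bp, which end under leave-outs, also ended without the trend, and those of Ifi47, Igtp, Lgals3bp and Ifit2 with Treg and Th0 alone in the fit. With a pseudocount of 0.1, Ifi44 fell by 4.26 on the log2 scale, less than Oasl2 (-6.39) and Oas2 (-5.60). All genes called in Treg against Th0 numbered 770, but 453 without the trend and 493 at the lowest leave-out. In the Smad experiment Mx1 and Oasl1 (2 members) were called higher in sgSmad3 against control and in sgSmad3 against sgSmad2 with a pseudocount of 0.1, without the trend, and with the groups compared alone in the fit. These 2 were called lower in sgSmad2/3 against sgSmad3 without the trend and with the groups compared alone, and 2 others, Cmpk2 and Rsad2, lower in sgSmad3 against sgSmad2 with the groups compared alone. Their values are 0 to 3 CPM. Against 0 genes in the reported fit, 178, 178 and 185 genes were called in sgSmad2/3, sgSmad3 and sgSmad2 against control with a pseudocount of 0.1, 164, 158 and 175 without the trend, and 505, 512 and 444 with the groups compared alone; between guide groups these gave at most 151, 152 and 512. The filter at a mean of 5 CPM was chosen after seeing the data. Depth limits members with under 3 reads in a library, such as Rsad2, Oasl2, Mx1 and Phf11d.

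Deviations of same-numbered libraries correlated between -0.020 and 0.037 in the cell-type experiment, so replicate numbers did not pair libraries there. In the Smad experiment the correlation was 0.39 for control with sgSmad2 and between -0.00045 and 0.091 for the other pairs. Control and sgSmad2 may thus share replicate structure, but with 2 libraries a group each pair of groups gives only 1 correlation. With the replicate block 38 members fell in Treg against Th0, 11 rose and 15 fell in Treg against naive, 35 rose and 3 fell in Th0 against naive, and 0 were called in the Smad experiment.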
